A study of Mus musculus with 3 samples.

Results

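The genes described are 35 genes of glycolysis and of the response to low oxygen, named one by one and not by any measured value: 18 enzymes of the glycolytic chain with their isoforms, 4 carriers of glucose or lactate, 3 enzymes that regulate flux, and 10 genes of the hypoxia response. They were sought by gene symbol among 31069 genes on a microarray, and all 35 had at least 1 probe. The RNA was that of mast cells cultured from bone marrow (BMMCs) of male C57BL/6 mice, 12 weeks old, without Pafah2, a phospholipase that cuts oxidised fatty acids out of membrane lipids. There were 3 arrays, 1 per group and no replicate: cells given the solvent DMSO (vehicle), cells given 300 nM of 2 omega-3 epoxides, 17,18-EpETE and 19,20-EpDPE at 2 to 3, and cells given 0.5 µM of GW9662, which blocks the nuclear receptor PPAR gamma, each for 12 h. All groups lack Pafah2, no wild-type cells were included, and the labels do not give the deleted part of the gene, the number of mice or the oxygen level of the cultures. A group of 1 array allows no test, and the spread between cultures is unknown.

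The treatment of 2 of the arrays is not settled by the deposited data. The columns of the authors' value table for the epoxide and GW9662 samples match each other's scanner files, while the vehicle column matches its own. Arrays are called here by the sample to which the scanner file is attached, as "labelled epoxides" and "labelled GW9662". If the value table is right, each value given for either treated array belongs to the other treatment.

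Glycolysis splits glucose into pyruvate in the cytosol, and lactate dehydrogenase turns pyruvate into lactate so that the chain can go on. When oxygen is short, prolyl hydroxylases of the EGLN family no longer mark the alpha subunits of hypoxia-inducible factors (HIF) for destruction through the von Hippel-Lindau protein. The stabilised factor pairs with ARNT, binds short elements with the core letters ACGTG or GCGTG, and raises transcription of glucose carriers, most glycolytic enzymes and genes such as Bnip3, P4ha1 and Egln3. Activated mast cells draw on glycolysis for degranulation and cytokine release.

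A level is the log2 signal of a gene's brightest probe minus the log2 of the 75th percentile of the array, and a log2 ratio is the difference of 2 such levels. Levels of different genes come from different probes and are not compared with each other. Of 43020 spots that are not controls, 52.3% to 54.6% per array stood well above background, and none was saturated. Probes spotted at least 5 times gave the spot error: over 219 such probes the median SD among copies was 0.060 with vehicle, 0.056 for the epoxide label and 0.055 for the GW9662 label, which puts the SD of a log2 ratio at 0.082 for either treated array over vehicle and at 0.079 between the treated arrays. This error covers spots of 1 hybridisation and not labelling or culture. The same value was used at every signal level, and it was not estimated apart for dim genes. All 10 mast cell markers were well above background on every array, and their log2 summed level was 9.59 with vehicle, 9.23 for the epoxide label and 9.45 for the GW9662 label. Markers of other cells well above background with vehicle numbered 2 of 2 for basophils (log2 summed level 1.75), 2 of 8 for neutrophils (0.84), 5 of 7 for macrophages or monocytes (0.79), 2 of 4 for T cells (1.254), 2 of 4 for erythroid cells (0.45), 3 of 3 for megakaryocytes (2.21) and 3 of 4 for dendritic cells (5.28, nearly all of it from Siglech). On the arrays labelled epoxides and GW9662 these sums were 1.76 and 1.62, 0.33 and 0.90, 0.78 and 0.79, 0.54 and 1.05, 0.30 and 0.40, 2.09 and 2.02, and 5.03 and 5.15, in the same order of cell types. The defining genes S100a8, S100a9 and Ltf of neutrophils, Mrc1 and C1qa of macrophages and Cd3g and Cd8a of T cells were not well above background on any array. Other genes of these lists were: Elane and Camp of neutrophils, Csf1r, Adgre1, Cd68, Cd14 and Marco of macrophages, and Cd3e and Cd4 of T cells on every array. Cd3e stood at -0.31 with vehicle, -1.40 for the epoxide label and -0.61 for the GW9662 label, and Cd4 at 0.64, 0.078 and 0.49. Mpo, the myeloperoxidase of neutrophil precursors, was at -5.48 and not well above background with vehicle, at -5.42 for the epoxide label and at -2.43 for the GW9662 label. Cd79a, a chain of the B cell receptor complex, was well above background only for the GW9662 label, at -1.77, against -6.00 with vehicle and -5.66 for the epoxide label. The probes of Mpo and Cd79a lie in a middle band of 220 of the 532 array rows. The part of other cells in the ratios below was not tested. In RNA from whole cultures, fewer cells of a type and less RNA per cell cannot be told apart.

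Of the 35 genes, 31 were well above background on all 3 arrays. The others were Hk3, a hexokinase of blood cells, Ldhb, the heart-type subunit of lactate dehydrogenase, and the prolyl hydroxylases Egln1 and Egln3, and none of these was well above background on any array. For Egln3, 2 probes gave the same result, while Hk3, Ldhb and Egln1 had 1 probe each, so no ratio is given for these 4 genes. Egln1 was read at -5.47 with vehicle, -5.70 for the epoxide label and -5.29 for the GW9662 label, and Egln3 at -7.05, -6.22 and -7.26, values without order since they lie in the background.

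**Figure D1:**
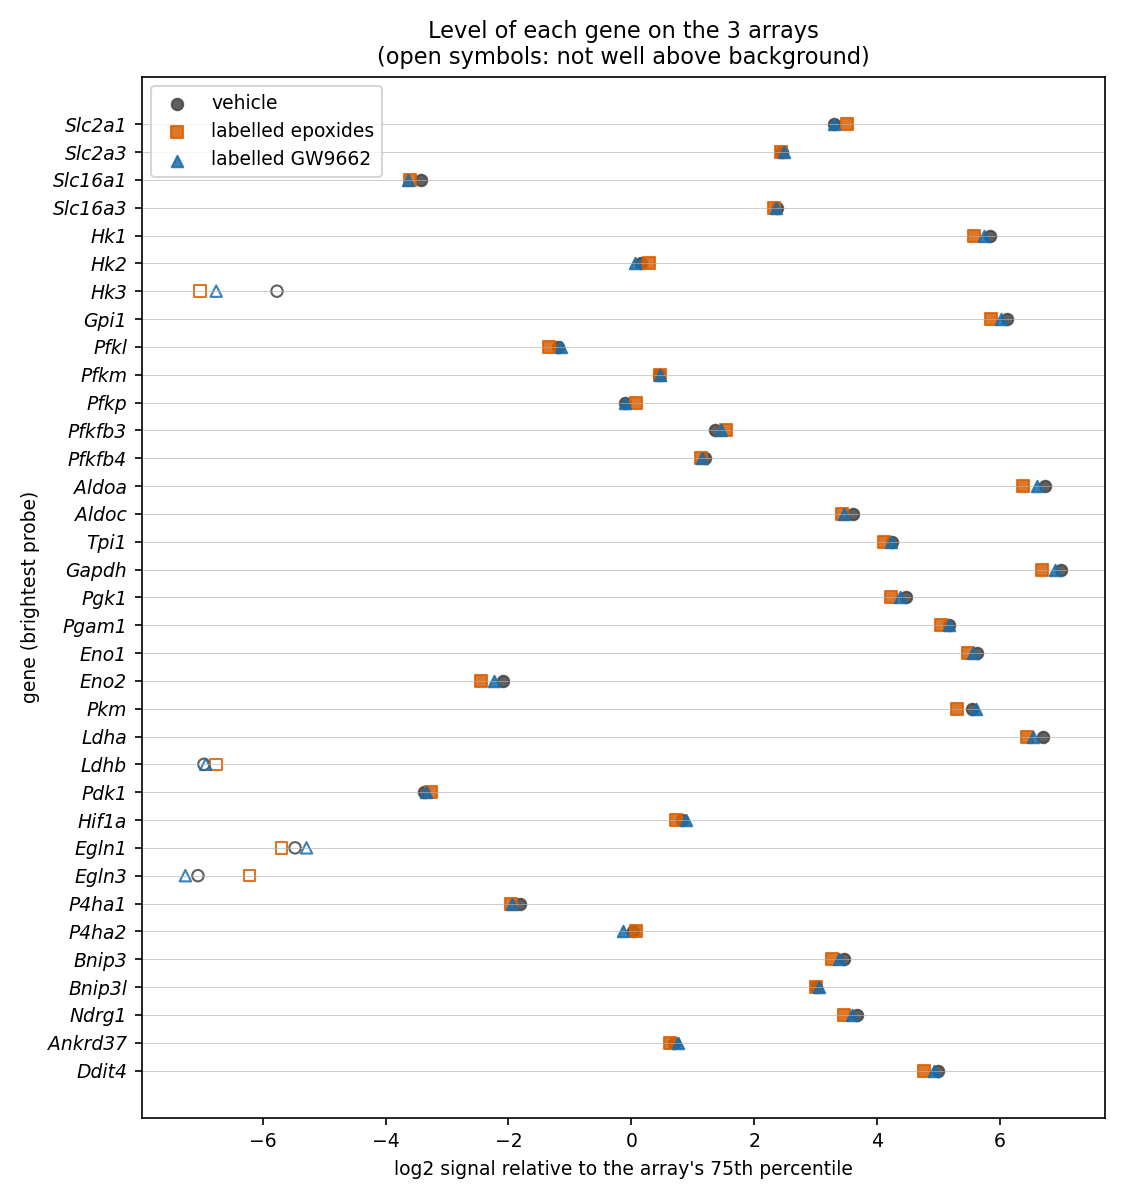
Levels of the 35 genes on the 3 arrays: the x axis is log2 signal over the array's 75th percentile, each row is a gene read by its brightest probe, and circles, squares and triangles stand for the vehicle array and the arrays labelled epoxides and GW9662 (open symbols: not well above background). The filled symbols of a gene lie close together, with the lowest ratio over vehicle, -0.36, for Eno2 on the array labelled epoxides, while the open symbols of Hk3 and Egln3, below background, lie farther apart.

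The promoters of 4 measured genes are shown because HIF is known to act through these letters and because the genes lay on different sides of vehicle in the values that follow. Each is the stretch of 250 bases before the first start site listed for the gene by RefSeq (build GRCm38.p6), printed 5′ to 3′ on the strand of the gene, with ACGTG or GCGTG on either strand in capitals. Ldha lies at chr7:46845554-46845803, Pgk1 at chrX:106186850-106187099 and P4ha1 at chr10:59323046-59323295, all on the plus strand, and Slc2a1 at chr4:119108495-119108744, also on the plus strand.
Ldha: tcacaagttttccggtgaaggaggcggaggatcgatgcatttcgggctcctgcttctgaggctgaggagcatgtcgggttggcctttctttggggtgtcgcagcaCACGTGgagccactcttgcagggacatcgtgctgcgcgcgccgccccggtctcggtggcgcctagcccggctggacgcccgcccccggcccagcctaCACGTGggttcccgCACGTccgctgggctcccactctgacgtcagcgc
Pgk1: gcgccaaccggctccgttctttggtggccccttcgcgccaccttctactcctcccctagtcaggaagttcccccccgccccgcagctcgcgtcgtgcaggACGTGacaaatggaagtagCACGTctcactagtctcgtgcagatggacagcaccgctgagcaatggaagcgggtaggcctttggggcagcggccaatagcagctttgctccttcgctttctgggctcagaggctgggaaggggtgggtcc
P4ha1: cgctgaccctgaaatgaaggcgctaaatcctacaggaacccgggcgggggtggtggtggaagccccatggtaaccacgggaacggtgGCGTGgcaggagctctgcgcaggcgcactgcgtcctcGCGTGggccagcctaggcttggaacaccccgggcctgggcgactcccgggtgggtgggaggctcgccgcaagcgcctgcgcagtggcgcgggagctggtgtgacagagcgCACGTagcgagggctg
Slc2a1: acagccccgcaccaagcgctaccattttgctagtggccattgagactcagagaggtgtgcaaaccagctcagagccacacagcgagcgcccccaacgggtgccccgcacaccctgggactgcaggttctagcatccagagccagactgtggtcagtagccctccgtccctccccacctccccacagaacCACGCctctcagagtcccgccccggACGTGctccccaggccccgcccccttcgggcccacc
Ldha held the letters at 3 places, of which 2 are the palindrome CACGTG, which is also the E-box read by MYC and USF factors. Of the 32 genes with an entry in the promoter table, 26 (81.2%) held ACGTG or GCGTG on either strand in this window, beside 38.6% of all 27025 genes in the table. Their windows were also richer in G and C, with a median of 63.4% against 52.0% over all genes. CACGTG was present in 5 of the 32 and in 6.05% of all genes. The 6 without a match were Aldoa, Eno2, Gpi1, Hk1, Pkm and Tpi1. Bnip3l, Ndrg1 and Slc2a3 had no entry. The 22 measured genes with a match had a median log2 ratio of -0.12 for epoxides over vehicle and -0.051 for GW9662 over vehicle, and the 6 without had -0.25 and -0.087. Of those without, Aldoa, Gpi1, Hk1, Pkm and Tpi1 had mean levels above 4. Of all genes with a mean level of 4 or more, 84.7% lay below vehicle on the array labelled epoxides. After a fit on GC content and signal was subtracted (below), the 6 had ratios from -0.14 to 0.12 for epoxides over vehicle. Whether the letters bear on the ratios was not tested. A match is a run of letters and not a measured binding site.

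Sugar enters through Slc2a1 (GLUT1) and Slc2a3 (GLUT3). Slc2a1, whose probe lies at chr4:118809864-118809923 in mm9, stood at 3.30 with vehicle, at 3.50 when labelled epoxides and at 3.29 when labelled GW9662. The array labelled epoxides was the highest of the 3, with a log2 ratio over vehicle of 0.20 (1.15-fold), more than 2 spot SDs, and the ratio ran from 0.15 to 0.28 over the other settings tried on the scanner files. Its only probe lies in the middle band of array rows that was left out as an alternative, so Slc2a1 has no value there. Neither have P4ha2, Slc16a1, Pfkl, Pgam1 and Pfkfb4. Slc2a3 (chr6:122678075-122678134) stood at 2.46, 2.44 and 2.49, with ratios of -0.013 and 0.035, less than 1 spot SD.

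Hexokinases trap glucose in the cell as glucose 6-phosphate. Hk1, the housekeeping isoform, had levels of 5.83, 5.58 and 5.75 with vehicle, labelled epoxides and labelled GW9662, so both treated arrays lay below vehicle, by log2 ratios of -0.25 and -0.088. Its 3 probes gave -0.16 to -0.40 for epoxides over vehicle and -0.021 to -0.14 for GW9662 over vehicle. Hk2, the isoform induced by HIF and growth signals, had 0.16, 0.29 and 0.061, highest on the array labelled epoxides. Its ratio for epoxides over GW9662 was 0.23 and stayed positive, between 0.11 and 0.25, in the settings tried on the scanner files, while its ratio of 0.13 over vehicle did not keep its sign. Gpi1, the isomerase that makes fructose 6-phosphate, had 6.11, 5.86 and 6.02, and its 3 probes gave ratios from -0.20 to -0.25 for epoxides over vehicle and -0.071 to -0.086 for GW9662 over vehicle.

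Phosphofructokinase commits the sugar to glycolysis, and has 3 isoforms. Pfkm, the muscle isoform (chr15:97962713-97962772), was spotted 10 times on each array and gives the firmest reading of the set: 0.45 ± 0.047 with vehicle, 0.46 ± 0.027 for the epoxide label and 0.46 ± 0.046 for the GW9662 label (SD, n = 10 spots of 1 hybridisation). Its ratios of 0.0045 and 0.010 over vehicle are well inside that spread. Pfkl, the liver isoform, had -1.19, -1.34 and -1.14, with ratios of -0.15 and 0.052, of which the first was within 2 spot SDs and ran from -0.15 to 0.16 over the settings tried on the scanner files. Pfkp, the platelet isoform, had -0.11, 0.070 and -0.11, so the array labelled epoxides was the highest by 0.18, and its second, dimmer probe gave 0.11, but 0.18 for GW9662 over vehicle. Pfkfb3, which makes fructose 2,6-bisphosphate, the strongest activator of phosphofructokinase, had 1.35, 1.54 and 1.46. Both treated arrays lay above vehicle for Pfkfb3, with log2 ratios of 0.19 and 0.10 that stayed between 0.13 and 0.24 and between 0.083 and 0.11 in the settings tried on the scanner files. Pfkfb4, a further isoform of that enzyme, had ratios of -0.056 and -0.048.

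With the plain scaling, the enzymes from aldolase to enolase lay below vehicle on the array labelled epoxides. Over the settings tried on the scanner files, several did not keep that side for epoxides over vehicle. Aldoa reached 0.082, Gapdh 0.11, Tpi1 0.12, Pgam1 0.054 and Eno1 0.099, while Eno2 stayed below 0, up to -0.040. Aldoa, the main aldolase (chr7:133938816-133938875), had 6.73, 6.38 and 6.60, with a log2 ratio of -0.35 (1.27-fold lower) for epoxides over vehicle and -0.13 for GW9662 over vehicle. Gapdh, the dehydrogenase that yields NADH, had 6.99, 6.69 and 6.90 by its brightest probe, with ratios of -0.30 and -0.095. Aldoc, a second aldolase, had -0.18 and -0.14, and Tpi1, which interconverts the triose phosphates, had 4.25, 4.10 and 4.23, with -0.14 and -0.019. Pgk1, which makes the first ATP of the chain (chrX:103398640-103398699), had 4.47, 4.23 and 4.37, and its ratios of -0.25 and -0.098 kept their sign in every setting tried on the scanner files, down to -0.081 and -0.056. Pgam1, the mutase, had 5.18, 5.04 and 5.17, with -0.13 and -0.0094. Eno1, the main enolase, had 5.62, 5.47 and 5.56, with -0.15 and -0.055. Eno2, the neuronal enolase (chr6:124710388-124710447), had -2.09, -2.44 and -2.24 and the lowest ratio of the set, -0.36 (1.28-fold lower), on the array labelled epoxides.

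At the end of the chain, Pkm, the pyruvate kinase of most tissues, had 5.54, 5.30 and 5.61, lowest on the array labelled epoxides, with ratios of -0.23 and 0.076 over vehicle. Its 2 probes gave -0.21 and -0.23 for epoxides over vehicle but lay on both sides of 0, at -0.061 and 0.076, for GW9662 over vehicle. Ldha, the muscle-type lactate dehydrogenase subunit (chr7:54110937-54110996), had 6.70, 6.43 and 6.53, below vehicle on both treated arrays, with ratios of -0.27 and -0.17. For epoxides over vehicle its 3 probes gave -0.27, -0.25 and 0.014, and the ratio ran from -0.27 to 0.041 over the settings tried on the scanner files. For GW9662 over vehicle the probes gave -0.17, -0.11 and -0.045, and the ratio ran from -0.17 to -0.090. Among the lactate carriers, Slc16a1 (MCT1) had -3.42, -3.61 and -3.64, with the lowest ratio of the set on the array labelled GW9662, -0.22, between -0.22 and -0.17 over those settings. Slc16a1 is dim and its only probe lies in the middle band of rows. Slc16a3 (MCT4), the exporter of glycolytic cells, had 2.37, 2.32 and 2.36, with a ratio of -0.052 for epoxides over vehicle, while its second probe, nearly as bright, gave -0.23. Pdk1, the kinase that keeps pyruvate out of the mitochondrial dehydrogenase, had -3.38, -3.26 and -3.34, with ratios of 0.12 and 0.035.

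Among the hypoxia genes, Hif1a, the oxygen-regulated subunit (chr12:75047269-75047329), had 0.83, 0.73 and 0.89, with ratios of -0.099 and 0.060. HIF-1 alpha is governed mainly through its protein, so this RNA level says little of its activity. P4ha1 and P4ha2, the catalytic subunits of collagen prolyl 4-hydroxylase, had -1.81, -1.95 and -1.95 and 0.019, 0.074 and -0.14. On the array labelled GW9662 both lay below vehicle, at -0.14 and -0.16. The value of P4ha2 stayed between -0.17 and -0.15 in the settings tried on the scanner files, while P4ha1 reached 0.021 there, and its second probe gave 0.016. Bnip3 and Bnip3l, receptors that mark mitochondria for autophagy, had 3.46, 3.27 and 3.38 and 3.00, 3.01 and 3.05. Ndrg1, a stress-induced gene of differentiation, and Ddit4 (REDD1), an inhibitor of mTORC1, had ratios of -0.22 and -0.23 for epoxides over vehicle and -0.088 and -0.071 for GW9662 over vehicle. Ankrd37, a direct HIF target, had 0.69, 0.62 and 0.76, with -0.063 and 0.069. The 8 measured genes of this group had medians of -0.12 for epoxides over vehicle and -0.077 for GW9662 over vehicle. By the brightest probe, none of the 8 was 0.32 or more from vehicle on either array. Over all genes 20.5% were that far lower and 5.26% higher for epoxides over vehicle, and 4.03% and 1.86% for GW9662 over vehicle. The only Bnip3l probe placed on the gene's own chromosome is a dimmer one, and it gave 0.34 and 0.12.

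The comparison of epoxides with vehicle asked which transcripts differ in cells given the lipids. Of the 31 measured genes, 23 had a negative log2 ratio, beside 61.1% of all 15812 genes measured, and their median was -0.14 (range -0.36 to 0.20) against -0.073 over all genes. The 16 glycolytic enzymes had a median of -0.20 with 13 negative. The lower ones included Eno2, Aldoa, Gapdh and Ldha, and those above vehicle were Pfkp, Hk2 and Pfkm. Only Eno2 and Aldoa had -0.32 or less, the limit used here for a call (2 of 31, beside 20.5% of all genes), and none had 0.32 or more (5.26% of all genes). More than 2 spot SDs below vehicle were 13 of the 31 (36.8% of all genes) and more than 2 above were 3, Slc2a1, Pfkfb3 and Pfkp (16.1%). Neither share was far from that over all genes.

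**Figure D2:**
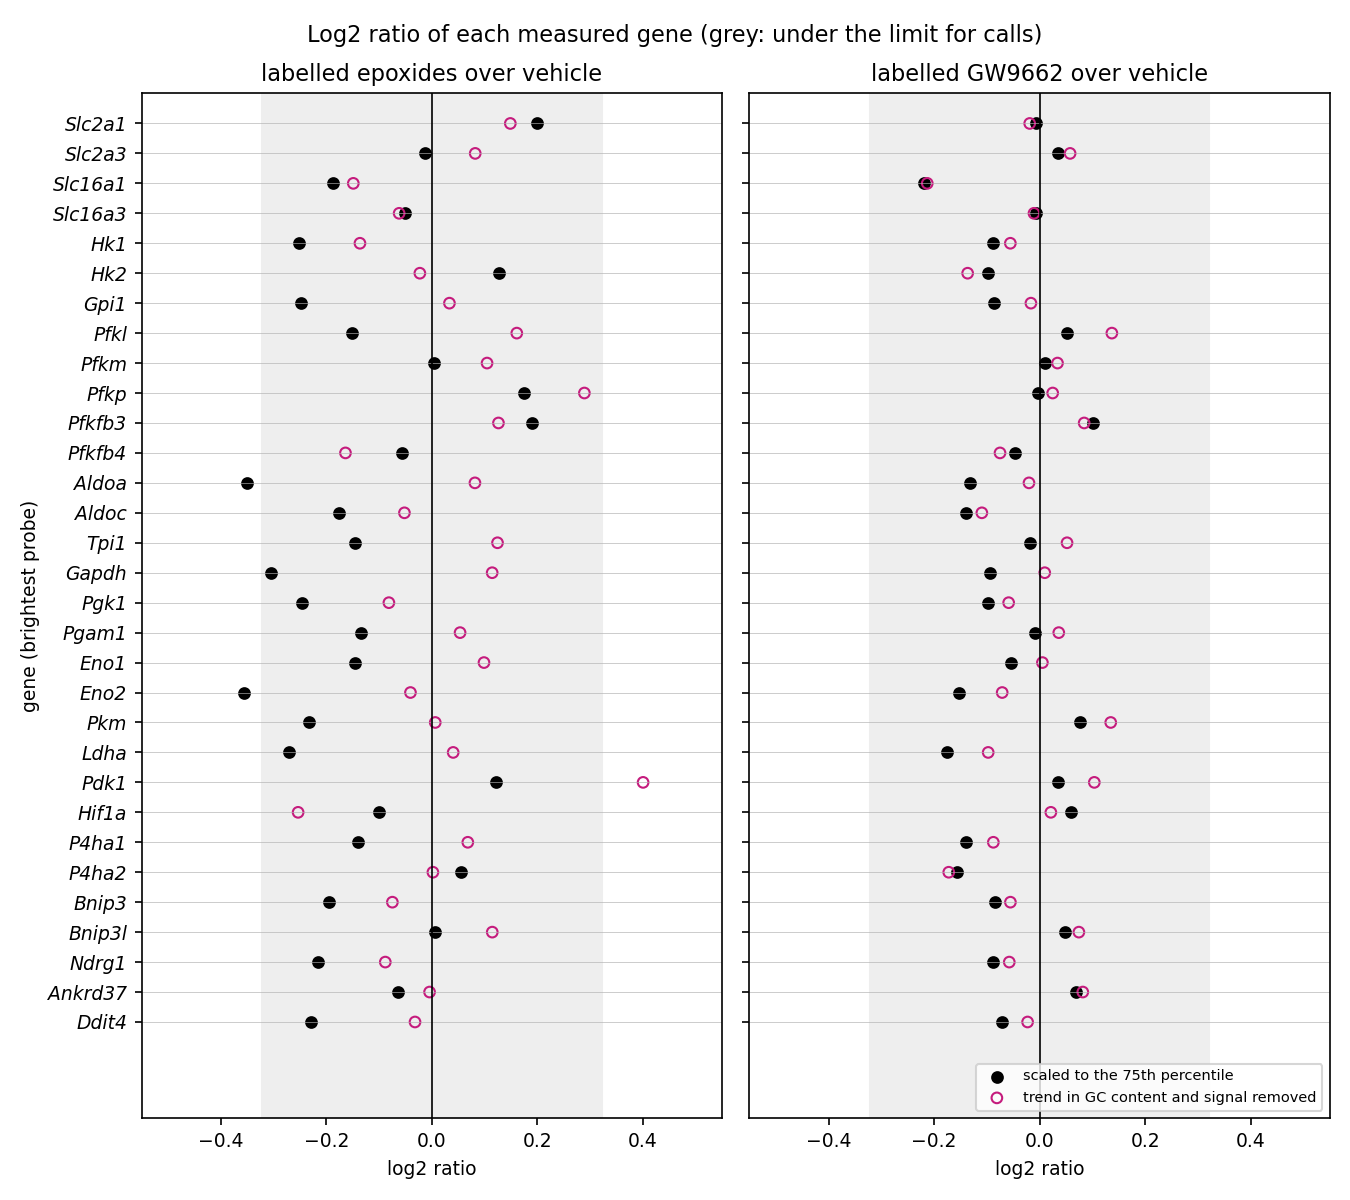
Log2 ratios over vehicle of the 31 measured genes, with the array labelled epoxides on the left and that labelled GW9662 on the right: filled points are scaled to the 75th percentile, open points are after subtracting the quadratic fit on GC content and signal, and the grey band lies within 0.32 of 0. On the left the filled points of most glycolytic enzymes lie below 0, while their open points lie around 0.

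Signal and base composition moved with these ratios. Across all genes the ratio of epoxides over vehicle had a correlation of -0.48 with the GC content of the probe and 0.18 with mean level, and across the 31 genes it had -0.48 with GC content and -0.44 with mean level (genes on the same arrays, not independent replicates). Of the 31 genes, 11 had a mean level of 4 or more, a limit chosen after the values were seen, and all 11 were below vehicle on the array labelled epoxides, with a median of -0.25, as were 84.7% of the 1736 measured genes that bright, with a median of -0.19. The other 20 had a median of -0.054 against -0.053 over the other genes. After a quadratic fit on GC content and signal was subtracted, the median of the 31 genes was 0.034, 13 were negative, and the 16 glycolytic enzymes had a median of 0.047 with 5 negative, beside a median of 0.0089 and 47.9% negative over all genes. Aldoa then had 0.082, Gapdh 0.11 and Ldha 0.041, above 0, while Hk1 had -0.14 and Pgk1 -0.081. Pdk1, a dim gene (-3.38 with vehicle) with a ratio of 0.12 before the fit, then had 0.40, the only one of the set 0.32 or more from vehicle. Over all genes 7.92% were then that far lower and 7.23% that far higher. The low position of the glycolytic enzymes with the plain scaling thus did not keep its direction. Pfkfb3, Slc2a1 and Pfkp stayed above vehicle, with 0.13, 0.15 and 0.29.

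**Figure D3:**
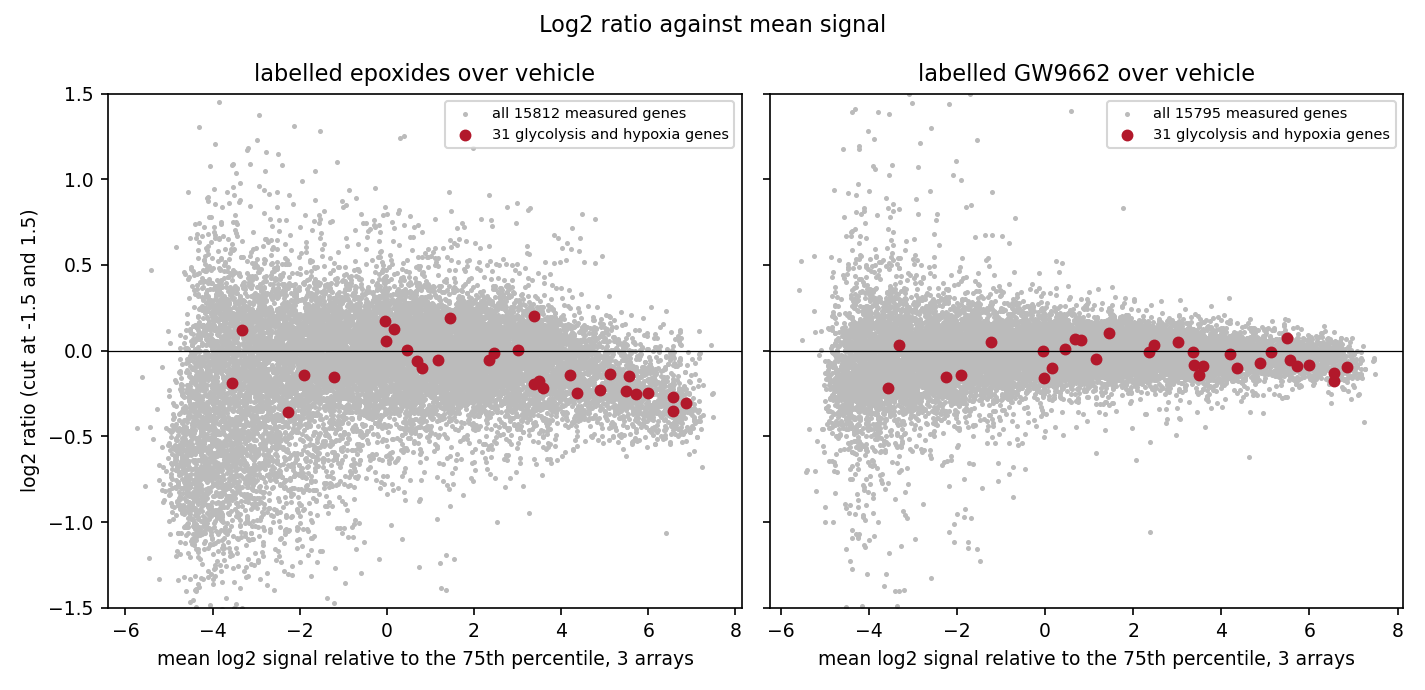
Log2 ratio over vehicle against mean log2 signal on the 3 arrays, for all measured genes (grey) and the 31 glycolysis and hypoxia genes (red), with the array labelled epoxides on the left and that labelled GW9662 on the right. The bright red points on the left sit inside a grey cloud that itself bends below 0 at high signal.

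The comparison of GW9662 with vehicle asked which transcripts differ when PPAR gamma is blocked. Of the 31 genes, 22 had a negative ratio (57.8% of 15795 genes measured), with a median of -0.055, a range from -0.22 to 0.10, and a median of -0.022 over all genes. None had -0.32 or less (4.03% of all genes) or 0.32 or more (1.86%). Only Slc16a1 and Ldha lay more than 2 spot SDs below vehicle (2 of 31, beside 14.5% of all genes), and none lay that far above (6.91%). The 16 glycolytic enzymes had a median of -0.087 with 13 negative, the exceptions being Pkm, Pfkl and Pfkm. The 11 bright genes had a median of -0.086 against -0.039 over the 1736 genes of like level. After that fit was subtracted here too, the median of the 31 was -0.016, 17 were negative (49.9% of all genes), and Ldha had -0.097, P4ha2 -0.17 and Slc16a1 -0.21.

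Set side by side, the treated arrays differed by little. Of the 31 genes, 24 were lower on the array labelled epoxides than on that labelled GW9662 (61.1% of 16044 genes measured), with a median of -0.096 against -0.056 over all genes, and none differed by 0.32 or more (14.2% of all genes lower and 3.50% higher). More than 2 spot SDs lower were 9 of the 31 (31.9% of all genes), and as far higher were Pfkp, Slc2a1, P4ha2 and Hk2 (4 of 31, beside 13.1%). Pkm had the lowest ratio, -0.31, followed by Aldoa at -0.22, and Hk2, P4ha2 and Slc2a1 the highest, at 0.23, 0.21 and 0.21. With the trend removed the median was 0.044 with 10 negative, beside 0.0056 and 48.4% over all genes. Hk2 stayed above 0 in the 11 settings that gave it a value, the plain one included, and P4ha2 and Slc2a1 in the 9 that gave them one, none of which leaves out the middle band of rows. Pkm stayed below 0, between -0.31 and -0.053. The brightest Pkm probe lies in that band, while its second probe, outside the band, gave -0.15, within 2 spot SDs.

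How far a gene's own probes spread limits each of these values. The 35 genes had 63 probes, of which 56 were well above background on all arrays, and 12 genes had at least 2 such probes. Bnip3 had probes at -0.19, 0.14 and 1.38 for epoxides over vehicle, and -0.084, 0.016 and 0.67 for GW9662 over vehicle. The probe with 1.38 is dim (-4.34 with vehicle) and lies in the middle band of rows. A second, dim Hif1a probe in that band gave -0.64 beside the -0.099 above. The 9 Gapdh probes ran from -0.49 to 0.038 and from -0.25 to 0.080. The files place 16 probes of 6 of the genes on another chromosome than the gene has in RefSeq. They include all 9 of Gapdh, which RefSeq places on chromosome 6 and whose brightest probe the files place at chrX:12902948-12903007, the only probe of Eno1 (chr2:80678866-80678925, gene on chromosome 4), the brightest probes of Pkm and Hk1 (both on chromosome 5, genes on chromosomes 9 and 10), 3 of the 4 probes of Bnip3l and 1 of the 3 of Gpi1. Signal from these genes and from near-identical copies elsewhere cannot be told apart with such probes, so their values are uncertain as readings of a single gene.

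**Figure D4:**
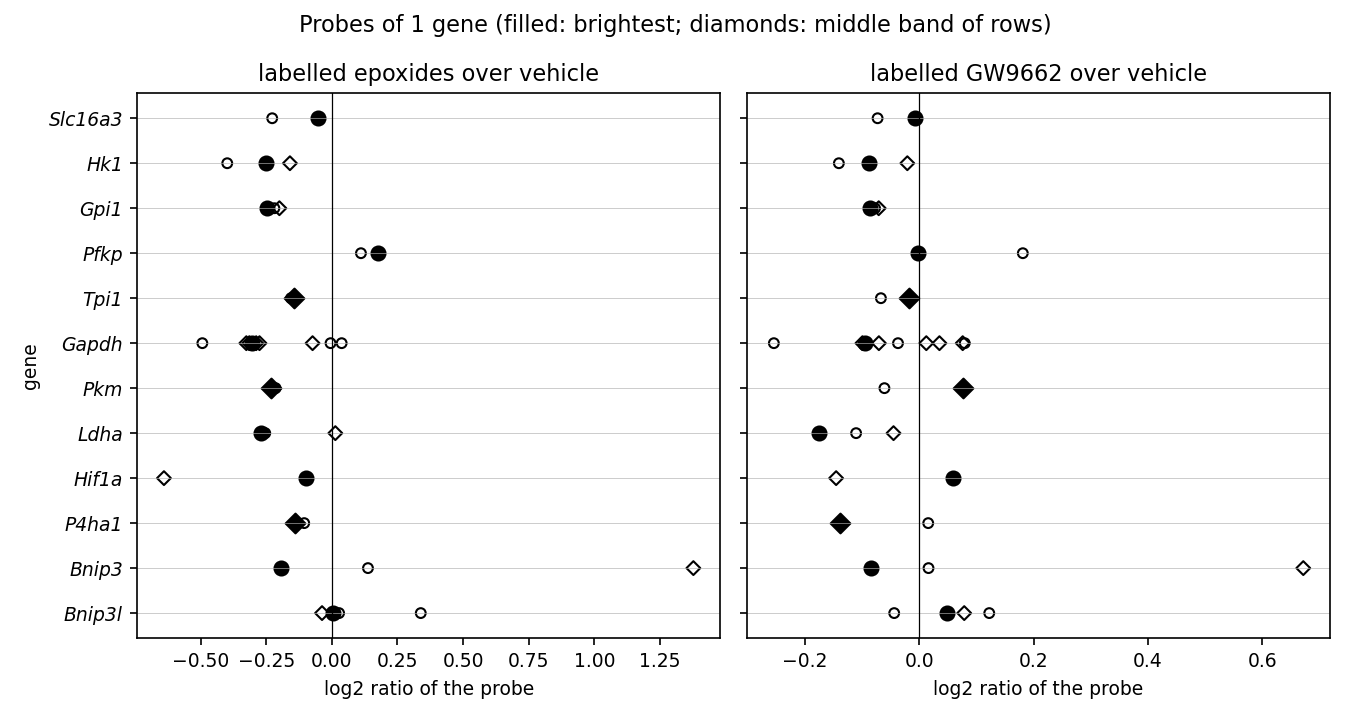
Log2 ratio over vehicle of each probe well above background, for the 12 genes with at least 2 such probes, with the array labelled epoxides on the left and that labelled GW9662 on the right: filled symbols are the brightest probe and diamonds lie in the middle band of array rows, and the x axes differ in range. Probes of Gpi1 and Tpi1 lie close together, while the Bnip3 probe at 1.38 lies far from the other two.

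Further genes of these pathways were 77, of which 60 were measured on the vehicle array and the array labelled epoxides and as many on the vehicle array and that labelled GW9662. For epoxides over vehicle 34 of the 60 had negative ratios (61.1% of all genes), with a median of -0.026. At -0.32 or less were 3 (20.5% of all genes), namely Loxl2, a collagen-crosslinking oxidase and HIF target, at -1.22, Ldhc, the testis lactate dehydrogenase, at -0.51 and Gys1, glycogen synthase, at -0.38. At 0.32 or more were 3 of the 60, beside 5.26% of all genes: Rpe at 0.48, Pdk2 at 0.43 and Pdp1 at 0.40. Rpe is an epimerase of the pentose phosphate pathway. Pdk2 is a kinase that shuts pyruvate dehydrogenase off, and Pdp1 is the phosphatase that turns it on. For GW9662 over vehicle, 29 of 60 were negative (57.8% of all genes), with a median of 0.0026, and only Loxl2 passed that limit, at -0.35 (1 of 60, beside 4.03% of all genes). Next lowest were Plod1, a lysyl hydroxylase of collagen, at -0.18 and Gys1 at -0.16. The members farthest above vehicle there were H6pd, the glucose 6-phosphate dehydrogenase of the endoplasmic reticulum, at 0.26, Ero1a, an oxidase of protein folding, at 0.20, and Rpe at 0.19. Of the 8 pentose phosphate genes, 3 were negative for GW9662 over vehicle (57.8% of all genes), with a median of 0.10. For epoxides over vehicle 5 were (61.1%), with a median of -0.16, and for epoxides over GW9662 6 were (61.1%), with -0.18. With the trend removed these medians were 0.056, 0.0069 and -0.087. The probes of H6pd, Pgls, Pgd, Rpia, Rpe and Tkt lie in the middle band of rows. Between the treated arrays, 62 were measured and 35 were negative (61.1% of all genes). At -0.32 or less were 4 of the 62 (14.2% of all genes), and at 0.32 or more 2 (3.5%). Loxl2 had the lowest ratio, -0.87, followed by H6pd at -0.46 and Ldhc at -0.40, and Pdk2 had 0.38 and Rpe 0.29. Hif3a, a HIF subunit that can act as an inhibitor, was higher on the array labelled epoxides by 0.83 at levels of -3.82 and -4.64, and was not well above background with vehicle.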

How the data were processed

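Labelled RNA (Cy3, 200 ng of total RNA) was read on 3 one-colour arrays of 1 design with 60-base probes. Per the submitters' processing notes, the scans were quantified by Feature Extraction 11.5.1.1 (Agilent). The deposited gProcessedSignal is a linear intensity from which background and spatial trends within an array were already taken, per the file headers, whereas gMeanSignal and gBGMedianSignal are raw intensity values. The authors' deposited value table gives a ratio, which equals the processed intensity over a constant near the 75th percentile of an array (within 0.001); column medians were 0.0475 for vehicle, 0.0455 for epoxides and 0.0369 for GW9662, and no header states how it was made.

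From the scanner files, each array's gProcessedSignal was divided by its 75th percentile (control spots left out) and put on the log2 scale. Outlier spots, 221 to 251 per array, were dropped and the copies of each probe averaged. Probes were named through RefSeq accessions (GRCm38.p6) where matched and by the file otherwise; probe positions are in mm9, as the files give them. The probe of highest mean level stood for its gene. Measured means that, on both arrays compared, most of its copies cleared background. A log2 ratio of 0.32 either way was the limit for calls. With 1 array per group there is no test. The steps were tested on simulated data.

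The genes, lists and alternatives were chosen with earlier results of these data known. Levels were given for the 5 highest and 5 lowest ratios per comparison, the brightest isoform of each step, and Hif1a, Egln1, Egln3, Pdk1 and the 4 carriers; of the further genes, the 3 highest and 3 lowest per comparison. Values of other genes of the set were added after they were seen. The mast cell and other marker lists are described in the report. 1 marker list is not reported here. Alternatives were quantile normalization and cyclic loess (limma 3.58.1 in R 4.3.3), normexp with an offset of 50, the value table of the authors, scaling on commonly detected probes, averaging all detected probes of a gene, dropping the filter on dim probes, keeping genes from the median signal up, limits of 1.5-fold and 2-fold, leaving out a middle band of 220 of the 532 array rows, and subtracting from each ratio a quadratic fit on GC content and signal. These last 2 were also combined. The split at a mean level of 4 was added after the data were seen.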

Additional observations from a re-analysis of the deposited data

How the results depend on the processing

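Medians of the 31 measured genes moved with the scaling. For epoxides over vehicle the median of -0.14 became -0.024 with quantile normalization, -0.056 with cyclic loess, -0.055 in the authors' value table, 0.034 after subtracting the GC and signal trend and -0.0065 with the middle band of rows also left out (25 genes). For GW9662 over vehicle it became -0.14 in the authors' value table. For epoxides over GW9662 it became -0.0092 with quantile normalization, -0.0089 with cyclic loess, 0.096 in the authors' value table, which exchanges the treated arrays, 0.044 with the trend removed and 0.030 with both changes. The number of negative ratios for epoxides over vehicle was 18 of 31 with quantile normalization (48.6% of all genes) and 20 of 31 with cyclic loess (51.3%). The medians over all genes in these 2 settings were 0.0084 and -0.0084. The number was 13 of 31 with the trend removed (47.9% of all genes) and 13 of 25 with both changes (47.6%). With both changes it was 13 of 25 for GW9662 over vehicle (49.7% of all genes). For epoxides over GW9662 it was 7 in the value table (38.9% of all genes). It was 10 with the trend removed, with the rows (48.4% of all genes) or without them (49.0%). The 2 genes past the limit of 0.32 on the lower side for epoxides over vehicle became 0 with quantile normalization, cyclic loess and the value table. They also became 0 with the trend removed, both changes, and limits of 1.5-fold and 2-fold, and 1 with genes from the median signal up. Over all genes the share that far lower was 20.5% with the plain scaling, 12.4% with quantile normalization and 14.1% with cyclic loess. It was 4.03% in the value table, 7.92% with the trend removed, 7.55% with both changes and 10.9% from the median signal up. At 2-fold, 327 of 15812 genes were lower. The count on the higher side, 0 with the plain scaling, became 1 with quantile normalization, the mean of detected probes, no filter on dim probes, the trend removed and both changes. Over all genes the shares there were 9.95%, 4.82%, 6.85%, 7.23% and 6.04%, in that order, and 5.26% with the plain scaling. For GW9662 over vehicle, 1 gene was past the limit on the lower side with no filter on dim probes (9.51% of all genes) and 2 in the value table (20.5%). For epoxides over GW9662, 1 was lower with the mean of detected probes (13.6% of all genes) and with no filter (45.7%). With no filter, 1 was higher (5.81%). Aldoa, at -0.35, had 0.082 with the trend removed and 0.045 with both changes. The cause of these shifts was not tested. Over all genes, those higher made up 20.4% of all calls for epoxides over vehicle, 44.5% after quantile normalization, 36.6% after cyclic loess and 47.7% once the trend was removed. For GW9662 over vehicle the shares were 31.5%, 43.4%, 38.1% and 48.7%, and for epoxides over GW9662 19.8%, 46.7%, 37.6% and 47.3%. Of the values of named genes under an alternative, 579 moved by less than the spot error and 199 by that much or more. A further 2, of genes past the limit, moved that far and changed sign. For epoxides over vehicle these counts were 176, 82 and 2. Over the settings on the scanner files the ratio took both signs for 13 of 25 named genes for epoxides over vehicle, Gapdh and Ldha among them, 11 for GW9662 over vehicle and 14 for epoxides over GW9662. No paired analysis was possible because each group has 1 array. The spread between cultures is unknown, and dim genes such as Slc16a1 and Pdk1 are read closer to background than the others.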
